A study of Homo sapiens with 12 samples.

Results

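Integrins are cell surface receptors built from 1 alpha and 1 beta chain, and the 10 genes described here, 5 alpha and 5 beta chains, make up 9 known alpha-beta pairs with one another. They were chosen by symbol (ITGA2, ITGA3, ITGA5, ITGA6, ITGAV, ITGB1, ITGB3, ITGB4, ITGB5 and ITGB8), all 10 were listed in each of the 12 libraries, and they stand among 22650 symbols in all. The libraries were made from total RNA of a pair of established human pancreatic ductal adenocarcinoma cell lines. The 4 groups of 3 libraries each were Panc1 with the ASAP2 knockout, wild-type Panc1, MiaPaCa2 with the ASAP2 knockout and wild-type MiaPaCa2. ASAP2 is a GTPase-activating protein for Arf proteins. The sources used here state neither how the knockout was made, nor from how many clones, nor if replicates were grown apart. The spread behind each p-value is that between these libraries and may be technical.

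The partner chosen by each chain sets what the receptor binds. The beta1 chain pairs with many alpha chains and gives receptors for collagen (alpha2), laminin (alpha3 and alpha6) and fibronectin (alpha5), whereas alphaV joins several beta chains to bind proteins with an RGD sequence, such as vitronectin and fibronectin, and alpha6 with beta4 anchors epithelial cells to laminin at hemidesmosomes. A receptor leaves the endoplasmic reticulum only as a pair, and beta1 is commonly made in excess of its alpha chains. Arf6 and its regulators act in the recycling of integrins between endosomes and the cell surface.

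Values are FPKM as deposited, fragments mapped to a gene scaled for its transcript length and for all mapped fragments of the library. Being per length, they allow chains to be set beside each other. Between 17958 and 19105 genes were listed per library, read depth is unknown, and libraries of 1 group correlated across genes at r = 0.9931 to 0.9971. ASAP2 averaged 13.8 ± 0.978 FPKM in knockout and 36.9 ± 2.04 FPKM in wild-type Panc1 libraries (SD, n = 3 each), and 12.3 ± 1.29 FPKM in knockout and 13.5 ± 0.320 FPKM in wild-type MiaPaCa2 libraries, where its difference did not pass the test (-0.13, adjusted p = 0.197, limma). It was -0.20 and called without knockout replicate 2 of MiaPaCa2 (adjusted p = 0.0315), and 0.09 and not called with each library centred chromosome by chromosome, so ASAP2 mRNA is a weak check of the MiaPaCa2 labels. Of the epithelial markers, KRT8 and KRT18 averaged at least 309.9 FPKM in every group, whereas CDH1 was at most 0.372 FPKM on average. In Panc1, KRT8 averaged 514.3 FPKM in knockout and 372.4 FPKM in wild-type libraries, and KRT18 403.8 and 309.9 FPKM. In MiaPaCa2, KRT8 averaged 457.4 FPKM in knockout and 648.8 FPKM in wild-type libraries, and KRT18 391.9 and 486.7 FPKM. EPCAM averaged 3.49 FPKM in knockout and 2.63 FPKM in wild-type Panc1 and was at 0 in MiaPaCa2. KRT7 was at most 2.76 FPKM on average in any group. KRT19 averaged 254.3 ± 24.03 FPKM in knockout and 540.6 ± 2.11 FPKM in wild-type Panc1, and 35.0 ± 3.79 FPKM in knockout and 105.4 ± 3.09 FPKM in wild-type MiaPaCa2. The summed mesenchymal markers VIM and CDH2 ranged over 2708 to 2761 FPKM in knockout and 2193 to 2361 FPKM in wild-type Panc1, and over 1905 to 2055 FPKM in knockout and 2409 to 2483 FPKM in wild-type MiaPaCa2. CDH2 averaged 32.8 ± 0.397 FPKM in knockout and 15.7 ± 0.563 FPKM in wild-type Panc1 and was at or near 0 in MiaPaCa2; the part of these markers in the integrin values was not tested. The summed endothelial markers reached at most 0.034 FPKM, and of the leukocyte markers PTPRC was at most 0.004 FPKM on average while CD68 averaged 163.6 ± 2.73 FPKM in knockout and 174.7 ± 4.23 FPKM in wild-type Panc1 libraries. Differences were tested with limma on log2(FPKM + 1), a scale that understates the change of low genes, with p-values adjusted by Benjamini-Hochberg over 13340 genes, those that averaged 1 FPKM or more in at least 1 line, and called at an adjusted p below 0.05. Of the 10 chains, 9 (all but ITGB8) passed this filter. In bulk RNA, fewer cells with a transcript and less of it per cell cannot be told apart.

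**Figure D1:**
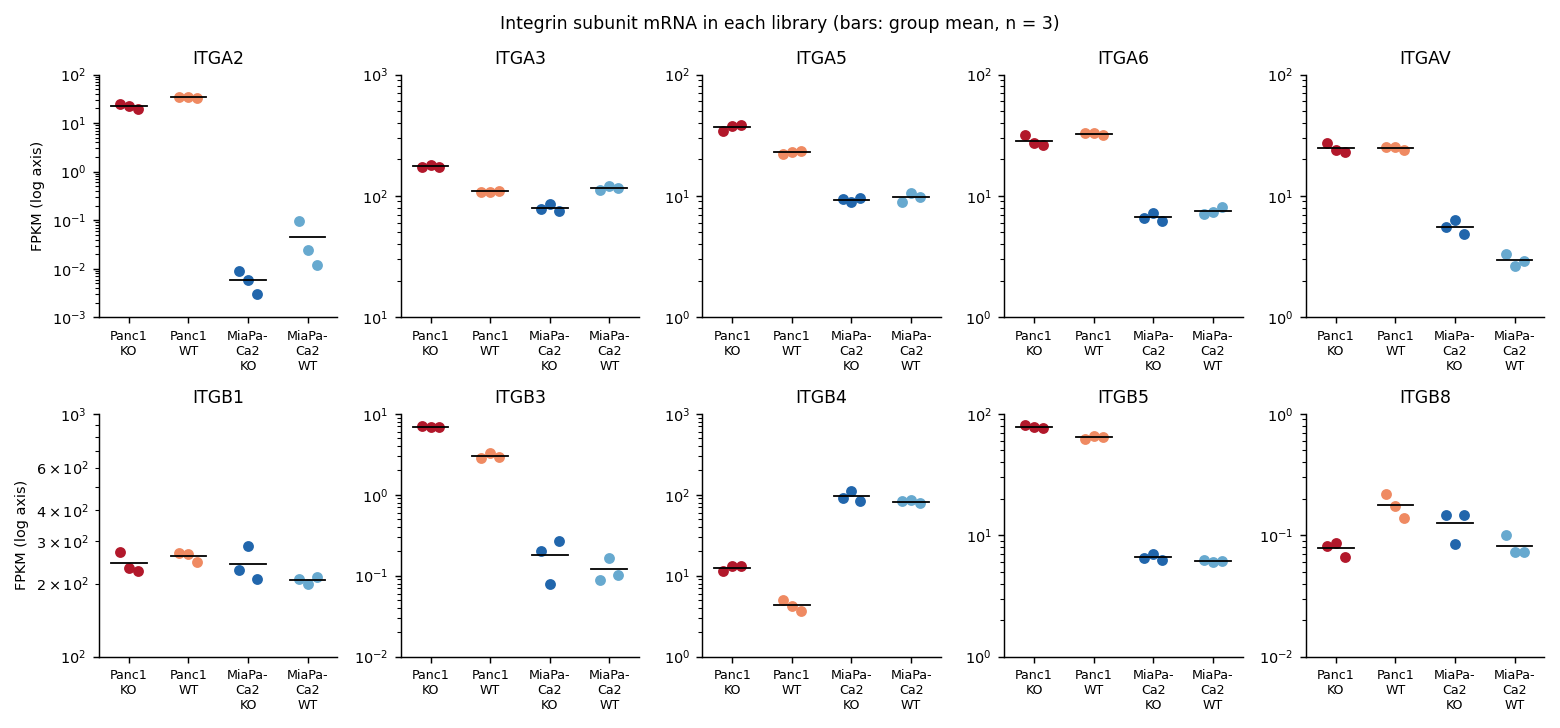
FPKM on log axes, which differ between panels, of each of the 10 integrin chains in the 12 libraries; points are libraries and bars the mean of 3. ITGB1 was at 198.9 FPKM or more in all libraries, ITGB4 was far higher in MiaPaCa2 than in Panc1, and ITGA2, ITGB3 and ITGB8 were below 0.3 FPKM in every MiaPaCa2 library.

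The lines held different sets of pairs. Taking a pair as possible at the mRNA level where both chains averaged at least 1 FPKM, 8 of the 9 pairs were possible in knockout as in wild-type Panc1 and 6 of 9 in knockout as in wild-type MiaPaCa2. Panc1 lacked only alphaVbeta8. MiaPaCa2 lacked alphaVbeta8, alphaVbeta3 and alpha2beta1. The knockout thus removed or added no pair at this level. At 5 FPKM, 8 pairs were possible in knockout and 6 in wild-type Panc1, the difference being alphaVbeta3 and alpha6beta4, and 6 in knockout and 4 in wild-type MiaPaCa2, the difference being alphaVbeta1 and alphaVbeta5.

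**Figure D2:**
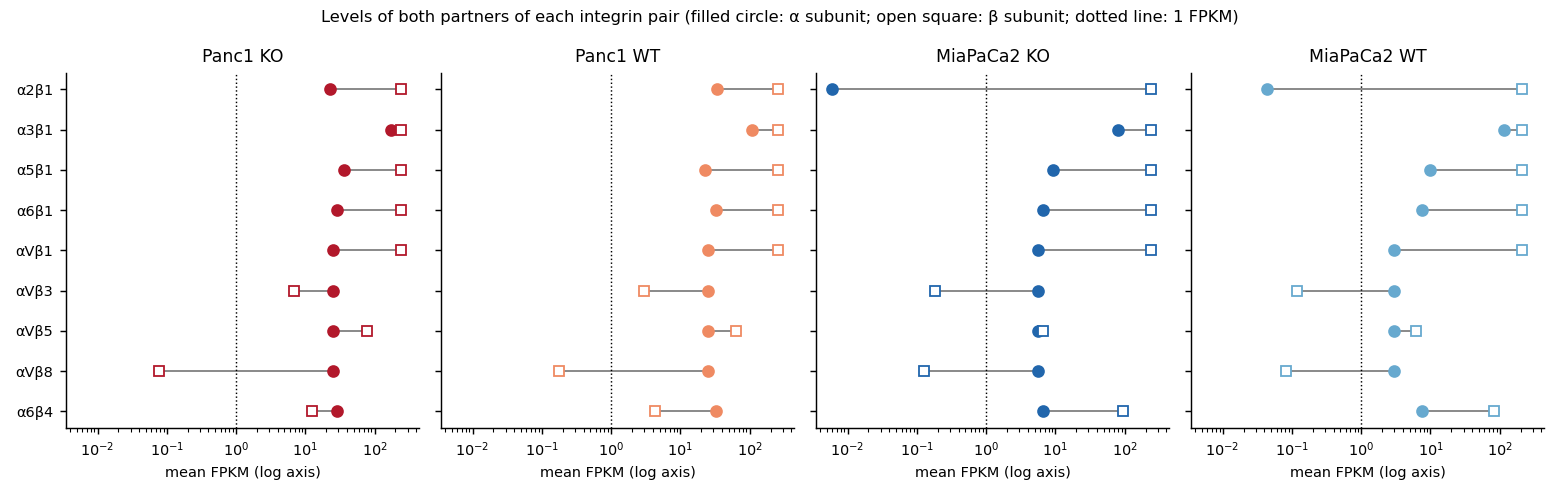
Mean FPKM (log axis) of the alpha chain (filled circle) and the beta chain (open square) of 9 integrin pairs in each group; the line between them shows how unequal the partners are and the dotted line marks 1 FPKM. In alpha6beta4 the beta chain was the lower partner in Panc1 and the alpha chain in MiaPaCa2.

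In the Panc1 knockout 5 of the 9 tested chains rose and 2 fell, with ITGAV and ITGB1 not called, where 63.5% of all 13340 genes were called, 21.8% higher and 41.6% lower (limma). In the MiaPaCa2 knockout 1 chain rose, 1 fell and 7 were not called, where 34.1% of all genes were called, 17.8% higher and 16.3% lower. The median log2 difference over the 9 chains was 0.29 in Panc1 and 0.08 in MiaPaCa2, and over all genes -0.10 in Panc1 and 0.01 in MiaPaCa2. The knockout effect in Panc1 minus that in MiaPaCa2 was called above 0 for 5 chains and below 0 for 2, all but ITGA6 and ITGB1 (ITGB1 -0.30, adjusted p = 0.0754), where 57.4% of all genes were called, 20% above and 37.4% below. For ITGA2 and ITGB3 this sets Panc1 against a line in which the gene is near 0. Median-ratio scaling of the libraries moved the all-gene median of that difference to -0.01 from -0.12, and brought the lower share of the called genes in Panc1 to 50.6% from 65.6%. Relative to the all-gene median in Panc1 the differences were 1.46 for ITGB4, 1.09 for ITGB3, 0.78 for ITGA3, 0.76 for ITGA5, 0.39 for ITGB5, -0.10 for ITGA6 and -0.47 for ITGA2.

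**Figure D3:**
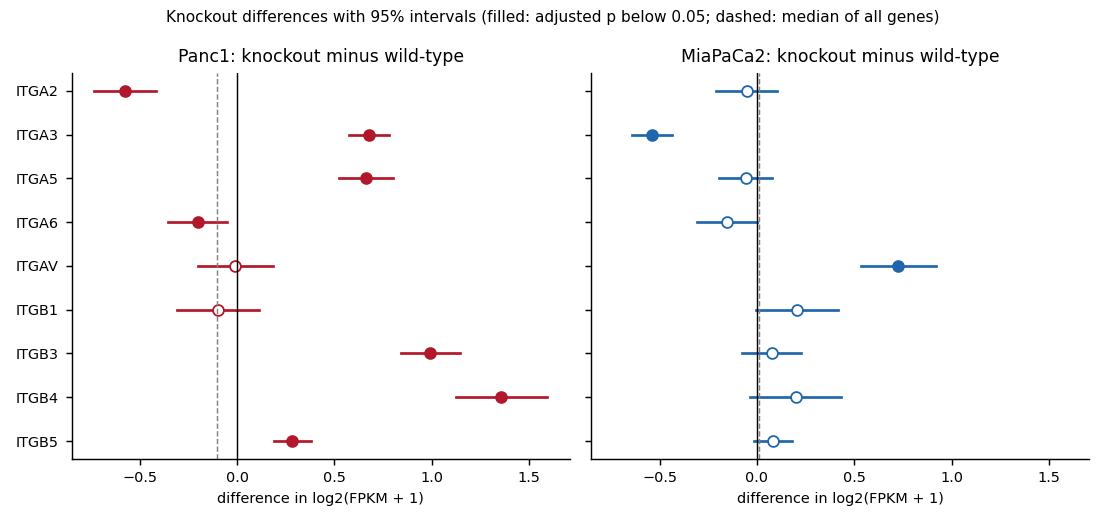
Knockout minus wild-type difference in log2(FPKM + 1) with its 95% interval for the 9 tested chains in each line; filled points passed the test and the dashed line is the median of all genes. Of the filled points, 5 lie to the right of 0 in Panc1, and in MiaPaCa2 ITGAV lies to the right and ITGA3 to the left.

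ITGB1, the shared partner on chromosome 10 (33176201 to 33294720, reverse strand, GRCh37), was the highest of the 10 chains in all 4 groups. It read 270.5, 230.96 and 224.9 FPKM in knockout and 267.1, 264.2 and 244.4 FPKM in wild-type Panc1 libraries. In the other line, MiaPaCa2, it read 228.3, 284.3 and 209.3 FPKM in knockout and 208.5, 198.9 and 213.1 FPKM in wild-type libraries. The groups overlapped in each line, and knockout replicate 2 of MiaPaCa2 stood highest. Neither difference passed the test (Panc1 -0.10, 95% interval -0.31 to 0.11, adjusted p = 0.398; MiaPaCa2 0.21, interval -0.005 to 0.42, adjusted p = 0.125; limma). Without knockout replicate 3 of MiaPaCa2 the second was 0.30 and was called (adjusted p = 0.0294). All 5 alpha chains stayed below ITGB1 in each group's mean.

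ITGA3, the alpha chain of a laminin receptor with beta1, was the highest alpha chain in all 4 groups and the only one of the 10 that was called in opposite directions in the lines. In Panc1 its libraries held 172.03, 179.4 and 173.8 FPKM with the knockout and 107.9, 108.4 and 110.5 FPKM without it. It rose there by 0.68 on the log2 scale (SE 0.05, adjusted p = 1.63e-07, limma), 1.61-fold in the means, with no overlap between the groups. In MiaPaCa2 its libraries held 77.4, 85.3 and 75.5 FPKM with the knockout and 111.5, 120.4 and 115.4 FPKM without it. There it fell by 0.54 (SE 0.05, adjusted p = 5.57e-06, limma), again with no overlap. The difference between the knockout effects was 1.22 (SE 0.07, adjusted p = 5.28e-08, limma). The wild-type lines were close, at 108.9 ± 1.38 FPKM in Panc1 and 115.8 ± 4.47 FPKM in MiaPaCa2 (log2 difference -0.09, adjusted p = 0.105, limma), while the knockout lines stood at 175.1 ± 3.85 FPKM in Panc1 and 79.4 ± 5.19 FPKM in MiaPaCa2. The gene lies on chromosome 17 (48133332 to 48167845, forward strand).

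ITGA5, the fibronectin-binding partner of beta1, was higher in the Panc1 knockout. It read 34.1, 38.0 and 38.1 FPKM in knockout and 22.1, 23.03 and 23.4 FPKM in wild-type Panc1 libraries, with no overlap (log2 difference 0.66, SE 0.06, adjusted p = 2.23e-06, limma). MiaPaCa2 held 9.37, 8.97 and 9.60 FPKM in knockout and 8.88, 10.7 and 9.72 FPKM in wild-type libraries, which overlapped (log2 difference -0.06, 95% interval -0.19 to 0.08, adjusted p = 0.533, limma). The knockout effects differed by 0.72 (adjusted p = 3.47e-05, limma). ITGA5 lies on chromosome 12 (54789045 to 54813050, reverse strand).

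ITGA2, the collagen-binding partner of beta1 on chromosome 5 (52285170 to 52390609, forward strand), was lower in the Panc1 knockout. Its libraries held 25.1, 22.5 and 19.8 FPKM with the knockout and 33.8, 34.8 and 32.8 FPKM without it, with no overlap (log2 difference -0.57, SE 0.07, adjusted p = 2.42e-05, limma). In the same comparison the 557 tested genes of chromosome 5 had a median of -0.28, against -0.10 over all genes. With each library centred chromosome by chromosome the ITGA2 difference was -0.25 and was still called (adjusted p = 0.00486, limma). The knockout effects differed by -0.52 (Panc1 less MiaPaCa2, adjusted p = 0.00106, limma), and with that centring it was -0.13 and not called (adjusted p = 0.252). In MiaPaCa2 ITGA2 was at most 0.009 FPKM in knockout and 0.097 FPKM in wild-type libraries, too low for a fold change to be read. Another collagen-binding partner of beta1, ITGA10, averaged 1.43 ± 0.102 FPKM in knockout and 2.71 ± 0.258 FPKM in wild-type Panc1 libraries, and 4.19 ± 0.876 FPKM in knockout and 4.60 ± 0.493 FPKM in wild-type MiaPaCa2 libraries.

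The promoters of ITGA5 and ITGA2, which were called in opposite directions in Panc1, and of ITGB1, the chain at the highest level, are shown for comparison. Each line gives the 250 bases before an annotated RefSeq start (GRCh38.p14), 5′ to 3′ on the strand of the gene, with capitals marking matches, on either strand, to GGAATG (the core of the TEAD motif) or to GGGCGG (the GC box).
ITGA5: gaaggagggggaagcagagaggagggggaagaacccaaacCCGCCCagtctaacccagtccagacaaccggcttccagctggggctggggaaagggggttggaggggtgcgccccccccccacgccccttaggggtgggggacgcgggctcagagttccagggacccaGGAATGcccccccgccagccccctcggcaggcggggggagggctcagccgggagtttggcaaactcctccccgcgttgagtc
ITGA2: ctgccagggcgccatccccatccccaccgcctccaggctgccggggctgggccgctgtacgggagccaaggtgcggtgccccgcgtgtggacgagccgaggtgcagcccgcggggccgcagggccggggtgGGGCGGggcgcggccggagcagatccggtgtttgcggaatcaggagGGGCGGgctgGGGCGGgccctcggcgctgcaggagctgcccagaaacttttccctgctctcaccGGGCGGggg
ITGB1: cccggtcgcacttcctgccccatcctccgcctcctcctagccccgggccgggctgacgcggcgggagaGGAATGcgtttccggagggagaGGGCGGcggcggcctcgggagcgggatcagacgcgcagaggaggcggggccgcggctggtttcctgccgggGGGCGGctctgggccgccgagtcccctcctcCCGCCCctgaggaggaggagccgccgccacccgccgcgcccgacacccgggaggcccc
They lie at chr12:54419267-54419516 (reverse strand) for ITGA5, chr5:52989102-52989351 (forward strand) for ITGA2 and chr10:32958231-32958480 (reverse strand) for ITGB1. ITGA5 held 1 GGAATG, starting 82 bases before the start site, and 1 GC box; ITGA2 held 4 GC boxes and no GGAATG; ITGB1 held 1 GGAATG, starting 182 bases before the start site, and 3 GC boxes. No matches overlapped. Of 35114 promoter windows of this length, 11.9% held GGAATG and 42.6% a GC box. The AP-1 motif TGANTCA, found in 6.57% of windows, was in none of the 12 windows of the 7 chains in the table, and a match is a description of letters, not of binding. ITGA3, ITGB3 and ITGB4 are not shown.

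ITGA6, the laminin-binding alpha chain that pairs with beta1 or beta4, differed little between the genotypes. In Panc1 it read 31.5, 27.5 and 26.1 FPKM in knockout and 33.1, 32.8 and 31.9 FPKM in wild-type libraries, without overlap. The difference of -0.20 was called in the values as deposited (SE 0.07, adjusted p = 0.0237, limma) but was -0.09 after median-ratio scaling of the libraries (adjusted p = 0.266). The call was also lost in 4 of the 6 fits that left out 1 Panc1 library, namely without knockout replicates 2 or 3 or wild-type replicates 1 or 2. In MiaPaCa2 it read 6.61, 7.22 and 6.22 FPKM in knockout and 7.16, 7.42 and 8.03 FPKM in wild-type libraries, which overlapped (log2 difference -0.15, 95% interval -0.31 to -0.002, adjusted p = 0.112, limma). It lies on chromosome 2 (173292082 to 173371187, forward strand), where the 788 tested genes had a median of -0.15 in that comparison against 0.01 over all genes.

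ITGB4, the beta chain of hemidesmosomes on chromosome 17 (73717408 to 73753899, forward strand), gained most of the 9 tested chains in the Panc1 knockout. It read 11.4, 13.3 and 13.01 FPKM in knockout and 5.08, 4.19 and 3.69 FPKM in wild-type Panc1 libraries. The groups did not overlap, and the means differed 2.91-fold (log2 difference 1.36, SE 0.11, adjusted p = 5.02e-07, limma). MiaPaCa2 held 90.4, 111.8 and 84.1 FPKM in knockout and 82.7, 86.3 and 78.3 FPKM in wild-type libraries, which overlapped (log2 difference 0.20, 95% interval -0.03 to 0.43, adjusted p = 0.179, limma). The knockout effects differed by 1.16 (SE 0.15, adjusted p = 5.54e-05, limma). Even after its gain in Panc1, the knockout libraries of that line stood below those of MiaPaCa2, at 12.6 ± 1.04 FPKM in Panc1 and 95.4 ± 14.5 FPKM in MiaPaCa2 (log2 difference -2.82, adjusted p = 3.82e-11, limma). In the GENCODE annotation GALK1 lies on the other strand and overlaps ITGB4 by 6225 bases, and whether counting used strand is not stated. GALK1 averaged 12.4 ± 1.91 FPKM in knockout and 9.70 ± 0.359 FPKM in wild-type Panc1 libraries, and 9.11 ± 1.22 FPKM in knockout and 16.1 ± 0.890 FPKM in wild-type MiaPaCa2 libraries; its part in the ITGB4 values was not tested.

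The balance of the alpha6beta4 partners differed between the genotypes in both lines. The log2 ratio of ITGB4 to ITGA6 was -1.468, -1.043 and -1.004 in knockout and -2.71, -2.97 and -3.11 in wild-type Panc1 libraries, which puts ITGB4 at 0.444 of ITGA6 in knockout and 0.131 in wild-type libraries (geometric means). In MiaPaCa2 it was 3.77, 3.95 and 3.76 in knockout and 3.53, 3.54 and 3.29 in wild-type libraries, with ITGB4 at 14.2 times ITGA6 in knockout and 10.9 times in wild-type libraries. The chain with the lower level was therefore ITGB4 in Panc1 and ITGA6 in MiaPaCa2, in every library. That lower level was 12.6 ± 1.04 FPKM in knockout and 4.32 ± 0.703 FPKM in wild-type Panc1, and 6.68 ± 0.504 FPKM in knockout and 7.54 ± 0.448 FPKM in wild-type MiaPaCa2. Neither group pair overlapped in this ratio, but 3 against 3 libraries cannot go below p = 0.10 in the exact two-sided permutation test, which was the value for both (0.123 after Benjamini-Hochberg adjustment over 16 ratio comparisons). Most of those 16 comparisons had the same value, and the share among ratios of other genes was not computed.

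**Figure D4:**
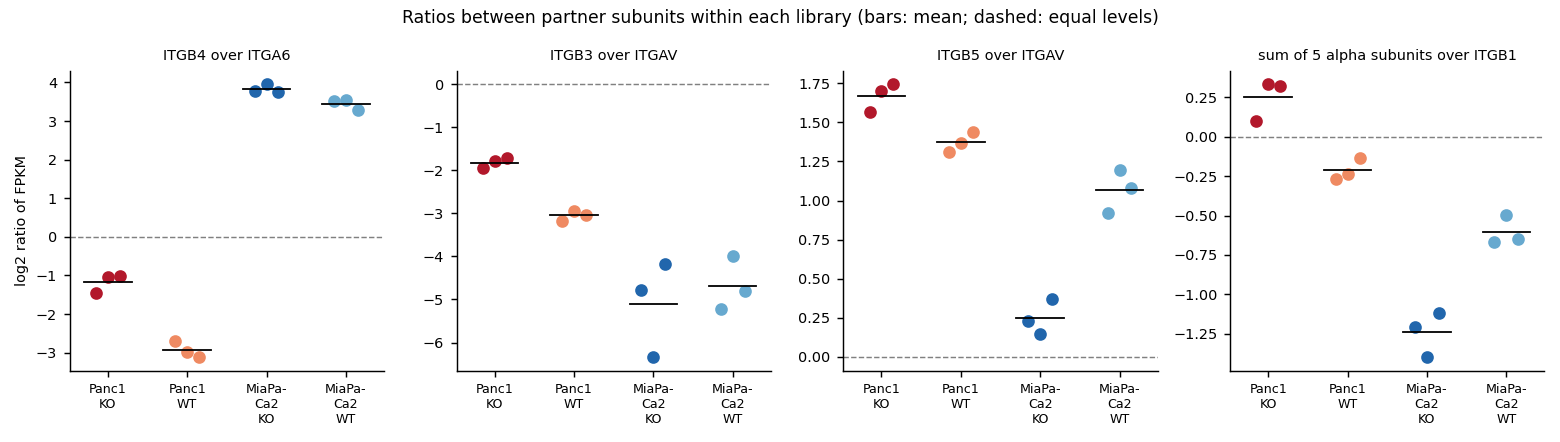
Log2 ratio of FPKM between partner chains within each of the 12 libraries; bars are means of 3 and the dashed line marks equal levels. The ITGB4 to ITGA6 ratio lay below 0 in all Panc1 and above 0 in all MiaPaCa2 libraries, and ITGB5 to ITGAV was higher in the Panc1 knockout and lower in the MiaPaCa2 knockout than in the wild type.

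ITGAV, the shared alpha chain of RGD-binding receptors, was called in MiaPaCa2 and not in Panc1. In MiaPaCa2 it read 5.50, 6.30 and 4.87 FPKM in knockout and 3.33, 2.64 and 2.90 FPKM in wild-type libraries, without overlap, a 1.88-fold difference in the means (log2 difference 0.73, SE 0.09, adjusted p = 7.77e-05, limma). In Panc1 it read 27.3, 23.7 and 22.98 FPKM in knockout and 25.2, 25.4 and 23.7 FPKM in wild-type libraries, which overlapped (log2 difference -0.01, 95% interval -0.20 to 0.18, adjusted p = 0.939, limma). The knockout effects differed by -0.74 (adjusted p = 3.75e-04, limma). Like ITGA6 it lies on chromosome 2 (187454737 to 187545628, forward strand), whose median in the MiaPaCa2 comparison was -0.15, and centred on that chromosome the difference in MiaPaCa2 was 0.94.

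Among the beta partners of alphaV, ITGB3, known for vitronectin binding, rose in Panc1. It read 7.04, 6.87 and 6.97 FPKM in knockout and 2.81, 3.31 and 2.90 FPKM in wild-type Panc1 libraries, without overlap, a 2.32-fold difference in the means (log2 difference 0.99, SE 0.07, adjusted p = 1.93e-07, limma). MiaPaCa2 held 0.200, 0.078 and 0.270 FPKM in knockout and 0.089, 0.166 and 0.103 FPKM in wild-type libraries, near 0 and overlapping. ITGB3 lies on chromosome 17 (45331193 to 45391109, forward strand), as ITGA3 and ITGB4 do, and the 789 tested genes of that chromosome had a median of 0.04 in the Panc1 comparison, against -0.10 over all genes. Centred on their chromosome, all 3 were still called in Panc1.

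ITGB5, the other vitronectin-binding beta chain, on chromosome 3 (124480795 to 124620265, reverse strand), was the higher of both in each group. It read 80.9, 77.2 and 76.9 FPKM in knockout and 62.4, 65.8 and 64.3 FPKM in wild-type Panc1 libraries, without overlap (log2 difference 0.28, SE 0.04, adjusted p = 1.23e-04, limma). In MiaPaCa2 it read 6.45, 6.98 and 6.31 FPKM in knockout and 6.29, 6.03 and 6.14 FPKM in wild-type libraries, which did not overlap but did not pass the test (log2 difference 0.08, 95% interval -0.01 to 0.18, adjusted p = 0.177, limma). The difference between the knockout effects, 0.20 (adjusted p = 0.0154, limma), was 0.13 with each library scaled to the same sum and was then not called (adjusted p = 0.125).

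ITGB8, which with alphaV activates latent TGF-beta, was below the filter. It read 0.082, 0.086 and 0.066 FPKM in knockout and 0.219, 0.175 and 0.138 FPKM in wild-type Panc1 libraries, and 0.147, 0.084 and 0.146 FPKM in knockout and 0.1, 0.073 and 0.073 FPKM in wild-type MiaPaCa2 libraries. The Panc1 groups did not overlap, at levels too low for a fold to be read. ITGB8 lies on chromosome 7 (20370325 to 20455377, forward strand), whose 582 tested genes had a median of -0.34 in Panc1.

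Relative to ITGAV, ITGB5 was higher with the knockout in Panc1 and lower with it in MiaPaCa2. The log2 ratio of ITGB5 to ITGAV was 1.57, 1.70 and 1.74 in knockout and 1.31, 1.37 and 1.44 in wild-type Panc1 libraries. In MiaPaCa2 it was 0.23, 0.15 and 0.37 in knockout and 0.92, 1.19 and 1.08 in wild-type libraries, so that ITGB5 stood at 1.19 times ITGAV in knockout and 2.09 times in wild-type libraries. The share of ITGB3 among ITGB3, ITGB5 and ITGB8 was 8.15 ± 0.150% in knockout and 4.46 ± 0.276% in wild-type Panc1 libraries. The sum of the 5 alpha chains was 287.3 ± 5.65 FPKM in knockout and 223.0 ± 1.30 FPKM in wild-type Panc1, and 101.0 ± 6.06 FPKM in knockout and 136.1 ± 5.10 FPKM in wild-type MiaPaCa2. The geometric mean of this sum over ITGB1 was 1.19 in knockout and 0.863 in wild-type Panc1, and 0.423 in knockout and 0.658 in wild-type MiaPaCa2. ITGA3 made up 60.95 ± 1.42% of the sum in knockout and 48.9 ± 0.761% in wild-type Panc1, and 78.6 ± 0.443% in knockout and 85.1 ± 0.250% in wild-type MiaPaCa2. The ITGB5 to ITGAV ratio and the ratio of the alpha sum to ITGB1 did not overlap between the genotypes in either line, and each had the smallest p that the exact permutation test allows (0.10, two-sided, 0.123 adjusted). The same held for most of the 16 ratio comparisons, among them ITGB8 to ITGAV in Panc1, where ITGB8 is near 0. How often ratios of other genes separate the genotypes was not computed, so this count is not a trait of integrin partners. Of all single genes, 63.5% were called in the Panc1 knockout and 34.1% in the MiaPaCa2 knockout (limma).

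Between the wild-type lines, 7 of the 9 tested chains were called higher in Panc1, 1 lower (ITGB4) and 1 not called (ITGA3). Those higher were ITGB5, ITGAV, ITGA6, ITGA5, ITGB1, ITGA2 and ITGB3. ITGB1 averaged 258.6 ± 12.4 FPKM in wild-type Panc1 and 206.8 ± 7.24 FPKM in wild-type MiaPaCa2 (log2 difference 0.32, adjusted p = 0.00819, limma). Between the knockout lines ITGB1 was not called (0.02, adjusted p = 0.88, limma). ITGB5 averaged 64.1 ± 1.69 FPKM in Panc1 and 6.15 ± 0.134 FPKM in MiaPaCa2 (log2 difference 3.19, adjusted p = 2.37e-15, limma), ITGAV 24.8 ± 0.955 and 2.95 ± 0.349 FPKM (2.71, adjusted p = 8.69e-12), ITGA6 32.6 ± 0.636 and 7.54 ± 0.448 FPKM (1.98, adjusted p = 1.77e-11) and ITGA5 22.8 ± 0.663 and 9.75 ± 0.893 FPKM (1.15, adjusted p = 1.59e-09). ITGB4 averaged 4.32 ± 0.703 FPKM in Panc1 and 82.4 ± 3.97 FPKM in MiaPaCa2, 19.1-fold higher in MiaPaCa2 (log2 difference -3.98, adjusted p = 1.30e-12). Such differences are common between these lines, where 82.7% of all genes were called between the wild-type lines, 41.8% higher and 40.9% lower in Panc1, and 84.6% between the knockout lines, 37.1% higher and 47.5% lower. ITGA2 and ITGB3 entered the test only through their Panc1 levels. In the order of levels within a group, most neighbours did not overlap; those that did were ITGA6 with ITGAV and ITGAV with ITGA2 in knockout Panc1, ITGA2 with ITGA6 in wild-type Panc1, ITGB4 with ITGA3, ITGA6 with ITGB5 and ITGB3 with ITGB8 in knockout MiaPaCa2, and ITGB3 with ITGB8 and ITGB8 with ITGA2 in wild-type MiaPaCa2.

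The genes most alike in pattern over the 12 libraries were sought among tested genes that averaged 5 FPKM or more. For ITGB4 they were SRC (Pearson r = 0.9973 of log2 values), GAA (0.9958) and SLC41A3 (0.9957). For ITGA3, whose pattern is not the line difference, they were CDC42BPB (0.9893), PLSCR3 (0.9868) and RHBDF2 (0.9768). The libraries fall into 4 groups and 2 lines, so a high r needs little more than a like difference between the lines and is given as a description.

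Of 16 further integrin subunits 3 were tested. Among these, 1 rose and 2 fell in Panc1, where 21.8% of all genes rose and 41.6% fell. The MiaPaCa2 comparison had 1 higher and 2 not called, where 17.8% of all genes rose and 16.3% fell. ITGB2, the beta chain of leukocyte integrins, rose in the Panc1 knockout, at 2.21 ± 0.318 FPKM in knockout and 1.10 ± 0.101 FPKM in wild-type libraries (log2 difference 0.61, adjusted p = 1.20e-05, limma). ITGA10 fell there (-0.61, adjusted p = 3.59e-04), and ITGAE, which pairs with beta7 to bind E-cadherin, fell in Panc1 (-0.28, adjusted p = 0.00812) and rose in MiaPaCa2 (0.26, adjusted p = 0.0262, limma). ITGB6, a further partner of alphaV, was at most 0.202 FPKM on average in any group, and ITGB7 at most 0.287 FPKM. The leukocyte alpha chains ITGAL, ITGAM, ITGAX and ITGAD were at most 0.218 FPKM on average in any group. ITGB2 itself averaged at most 0.021 FPKM in MiaPaCa2 and entered the test only through Panc1.

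Of 9 hemidesmosome and lateral partners of integrins 2 rose and 2 fell in each line, where 63.5% of all genes were called in Panc1 and 34.1% in MiaPaCa2. Their median was 0.07 in Panc1 and -0.05 in MiaPaCa2, against all-gene medians of -0.10 in Panc1 and 0.01 in MiaPaCa2. CD82, a tetraspanin that binds integrins, rose in both, at 31.3 ± 1.73 FPKM in knockout and 14.5 ± 0.865 FPKM in wild-type Panc1 (log2 difference 1.06, adjusted p = 4.20e-07, limma) and 22.1 ± 2.94 FPKM in knockout and 6.66 ± 0.370 FPKM in wild-type MiaPaCa2 (1.58, adjusted p = 6.58e-08). CD151, the tetraspanin partner of alpha3 and alpha6, rose in Panc1 (0.16, adjusted p = 0.00127) and fell in MiaPaCa2 (-0.19, adjusted p = 9.62e-04). CD47, a lateral partner of alphaV integrins, fell in Panc1, at 7.47 ± 0.373 FPKM in knockout and 10.8 ± 0.490 FPKM in wild-type libraries (-0.47, adjusted p = 9.10e-06). The tetraspanin CD9 also fell there (-0.35, adjusted p = 5.48e-05), and the tetraspanin CD81 rose in MiaPaCa2 (0.13, adjusted p = 0.0338, limma). COL17A1, the collagen of hemidesmosomes, fell in MiaPaCa2, at 7.58 ± 0.181 FPKM in knockout and 14.9 ± 1.34 FPKM in wild-type libraries (-0.88, adjusted p = 2.44e-06), and was at most 0.114 FPKM on average in Panc1. PLEC, the plakin that links beta4 to keratin filaments, averaged 133.8 ± 9.03 FPKM in knockout and 126.9 ± 5.61 FPKM in wild-type Panc1 (adjusted p = 0.401) and 61.2 ± 3.60 FPKM in knockout and 68.7 ± 7.07 FPKM in wild-type MiaPaCa2 (adjusted p = 0.114).

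Of 20 tested ligand genes 7 rose and 6 fell in Panc1 (median 0.01), where 21.8% of all genes rose and 41.6% fell, and 5 rose and 3 fell in MiaPaCa2 (median 0.003), where 17.8% rose and 16.3% fell. MFGE8, an RGD protein that binds alphaV integrins, rose in Panc1, at 249.8 ± 8.49 FPKM in knockout and 62.8 ± 2.88 FPKM in wild-type libraries (log2 difference 1.98, adjusted p = 3.95e-10, limma), and in MiaPaCa2, at 13.99 ± 0.786 FPKM in knockout and 9.42 ± 1.05 FPKM in wild-type libraries (0.53, adjusted p = 1.04e-04). CCN1, also a ligand of alphaV integrins, rose by 0.88 in Panc1 (adjusted p = 2.04e-05) and by 0.98 in MiaPaCa2 (adjusted p = 3.77e-05, limma). CCN2, of the same family as CCN1, rose in Panc1, at 108.4 ± 13.99 FPKM in knockout and 27.96 ± 3.61 FPKM in wild-type libraries (1.92, adjusted p = 1.19e-08, limma). COL1A1, a chain of collagen I, which alpha2beta1 binds, rose there too, at 313.9 ± 46.5 FPKM in knockout and 89.3 ± 2.56 FPKM in wild-type libraries (1.79, adjusted p = 9.04e-09). CCN2 and COL1A1 were near 0 in MiaPaCa2. COL1A2, which codes for the other chain of collagen I, averaged 150.3 ± 3.21 FPKM in knockout and 113.8 ± 1.13 FPKM in wild-type MiaPaCa2, without overlap. Its difference there was not called (0.40, adjusted p = 0.35, limma). The spread was estimated over all 12 libraries, and in wild-type Panc1 it ran from 0.017 to 1.783 FPKM. Panc1 averaged 0.247 FPKM of COL1A2 in knockout and 0.609 FPKM in wild-type libraries. THBS1, thrombospondin 1, averaged 7.43 ± 0.550 FPKM in knockout and 2.72 ± 0.242 FPKM in wild-type Panc1 (1.18, adjusted p = 1.88e-08) and was near 0 in MiaPaCa2. In MiaPaCa2, TGFB3, whose latent form alphaV integrins bind, fell (-0.33, adjusted p = 0.00725), and LAMB2, a laminin beta chain, rose (0.32, adjusted p = 1.57e-04, limma). Both changes were called in Panc1 too, TGFB3 at -0.32 (adjusted p = 0.0033) and LAMB2 at 0.29 (adjusted p = 8.27e-05, limma). LAMB3, another laminin beta chain, fell in the Panc1 knockout, at 2.26 ± 0.217 FPKM in knockout and 4.56 ± 0.0657 FPKM in wild-type libraries (-0.77, adjusted p = 2.49e-07, limma); it was named after its values were seen. FN1 was at most 0.206 FPKM on average in any group, and VTN at most 0.341 FPKM.

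Of 14 tested activators and inhibitors of integrins, 5 rose and 8 fell in Panc1 (median -0.27), where 21.8% of all genes rose and 41.6% fell, and 1 rose and 6 fell in MiaPaCa2 (median -0.11), where 17.8% rose and 16.3% fell. SLC3A2, the CD98 heavy chain that binds beta tails, rose in both lines (0.85, adjusted p = 3.22e-07 in Panc1; 0.34, adjusted p = 0.00153 in MiaPaCa2, limma). KRIT1, which binds the integrin regulator ITGB1BP1, fell in Panc1 (-0.79, adjusted p = 1.46e-05), as did TNS3, a tensin (-0.75, adjusted p = 6.92e-08), and TLN2, a talin (-0.67, adjusted p = 3.62e-06). TLN2 also fell in MiaPaCa2 (-0.21, adjusted p = 0.0326, limma), at 0.477 ± 0.035 FPKM in knockout and 0.705 ± 0.019 FPKM in wild-type libraries. KRIT1 and TNS3 were not called there. DOK1, which competes with talin for beta tails, fell in MiaPaCa2 (-0.35, adjusted p = 0.00399), as did FLNA, filamin A, which also binds beta tails (-0.33, adjusted p = 0.00557, limma). Both rose in Panc1, DOK1 by 0.25 (adjusted p = 0.011) and FLNA by 0.23 (adjusted p = 0.0189, limma). FERMT1, a kindlin of epithelial cells, fell in both lines, in MiaPaCa2 at 42.5 ± 3.08 FPKM in knockout and 59.7 ± 2.81 FPKM in wild-type libraries (-0.48, adjusted p = 0.00177), and in Panc1 at 0.644 ± 0.0800 FPKM in knockout and 1.10 ± 0.315 FPKM in wild-type libraries (-0.34, adjusted p = 0.00606).

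Of 20 tested genes of integrin traffic, 6 rose and 6 fell in Panc1 (median 0.06), where 21.8% of all genes rose and 41.6% fell, and 5 rose and 2 fell in MiaPaCa2 (median 0.02), where 17.8% rose and 16.3% fell. RAB11FIP1, the Rab-coupling protein of integrin recycling, rose in Panc1, at 3.67 ± 0.214 FPKM in knockout and 1.47 ± 0.0475 FPKM in wild-type libraries (0.92, adjusted p = 3.34e-08, limma), and less in MiaPaCa2 (0.18, adjusted p = 0.0169), a difference of 0.73 (adjusted p = 7.22e-06). RAB11B, a GTPase of recycling endosomes, rose in Panc1, at 88.3 ± 0.385 FPKM in knockout and 50.9 ± 3.19 FPKM in wild-type libraries (0.79, adjusted p = 1.27e-07, limma). It fell in MiaPaCa2 (-0.17, adjusted p = 0.0251, limma). SNX17, which spares beta1 from degradation, rose in Panc1 (0.58, adjusted p = 6.30e-06) and fell in MiaPaCa2 (-0.28, adjusted p = 0.00480, limma). CYTH2, an exchange factor for Arf proteins, fell in Panc1 (-0.52, adjusted p = 8.86e-06). Other such exchange factors rose in MiaPaCa2, CYTH3 by 0.26 (adjusted p = 0.00783) and IQSEC1 by 0.21 (adjusted p = 0.00633, limma). CYTH3 rose in Panc1 as well (0.24, adjusted p = 0.00648), where IQSEC1 was not called (0.08, adjusted p = 0.162, limma). CYTH2 was not called in MiaPaCa2 (0.02, adjusted p = 0.875, limma). ARF6 averaged 43.8 ± 3.48 FPKM in knockout and 46.7 ± 2.69 FPKM in wild-type Panc1 (adjusted p = 0.226) and 77.9 ± 5.72 FPKM in knockout and 84.3 ± 1.17 FPKM in wild-type MiaPaCa2 (adjusted p = 0.190, limma).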

How the data were processed

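Each library came as a deposited list of gene symbols with FPKM. Per the series' design text, BGISEQ-500 reads were cleaned of adaptors and poor reads and aligned by TopHat2 2.0.14 to UCSC's hg19, and the authors computed FPKM with STAR 2.5.2a. Strand use, read number and the handling of multi-mapped reads are not stated, so no counting interval is printed.

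A symbol absent from a library was taken as 0. The test was a limma 3.58.1 model (R 4.3.3) of log2(FPKM + 1) over all 12 libraries, with 1 mean per group (8 residual degrees of freedom), a trend of variance on level and Benjamini-Hochberg adjustment over 13340 genes; it was checked on simulated data. Alternatives were other pseudocounts, filters and scalings, centring on chromosomes, a replicate block and leaving out each library. Ratios were compared by exact permutation (scipy 1.17.1). Positions are from GENCODE 44 on GRCh37, promoters from RefSeq (GRCh38.p14).

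The members, lists and tests were chosen with earlier results of these data known. Named genes are all members and ASAP2, of each of 5 lists up to 4 called genes, taken by size of change where the genotypes did not overlap and the higher averaged 1 FPKM or more, and the 3 most alike genes. The markers, ITGB6, ITGB7, ITGAL, ITGAM, ITGAX, ITGAD, PLEC, ARF6, FN1, VTN, GALK1, LAMB3 and COL1A2 were added after their values were seen. So were the second line's values of a listed gene. Replicate numbers did not pair the libraries.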

Additional observations from a re-analysis of the deposited data

Results flagged for a closer look

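For 7 of the 9 tested chains the knockout effect in Panc1 differed from that in MiaPaCa2 by a test of the difference itself (limma, adjusted p below 0.05). The log2 difference between the effects was 1.22 for ITGA3, 1.16 for ITGB4, 0.92 for ITGB3, 0.72 for ITGA5 and 0.20 for ITGB5, all higher in Panc1, and -0.52 for ITGA2 and -0.74 for ITGAV, both lower in Panc1. ITGA3 was called in both lines, in opposite directions, and ITGAV in MiaPaCa2. The adjusted p ran from 5.28e-08 for ITGA3 to 0.0154 for ITGB5, and 57.4% of all genes were called in this test. ITGA2 and ITGB3 are near 0 in MiaPaCa2 and passed the filter only through Panc1, so their effect in MiaPaCa2 could only be near 0 on the log2(FPKM + 1) scale and their difference restates the Panc1 change. Their errors in Panc1 also draw on the MiaPaCa2 libraries, as the spread is shared. With a pseudocount of 0.1 the Panc1 change was -0.59 for ITGA2 (SE 0.17, adjusted p = 0.00999) and 1.19 for ITGB3 (SE 0.22, adjusted p = 5.7e-04, limma), both still called. The ITGA2 difference was not called with a pseudocount of 0.1 (-0.19, adjusted p = 0.524) or with centring on chromosomes (-0.13, adjusted p = 0.252), and that of ITGB5 was not called with libraries scaled to the same sum (0.13, adjusted p = 0.125).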

How the results depend on the processing

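In the Panc1 comparison 2 chains were lower as deposited and 1 after median-ratio scaling, quantile normalization or centring on chromosomes, where ITGA6 was lost; with a library left out it was 1 to 2. The count of chains called lower in the test between the lines, 2 as deposited, was 1 with a pseudocount of 0.1 and 1 with chromosome centring, where ITGA2 was not called (-0.19 and -0.13, adjusted p = 0.524 and 0.252). It was 2 to 3 with a library left out: ITGB1 joined without knockout replicate 1 of Panc1 (-0.39, adjusted p = 0.0292) or knockout replicate 3 of MiaPaCa2 (-0.40, adjusted p = 0.0178), and it was also called with the same sum (-0.38, adjusted p = 0.0414) and with quantile normalization (-0.47, adjusted p = 0.0119). With a library left out, chains called higher in MiaPaCa2 numbered 1 to 2 (ITGB1 joined), and chains lower in wild-type Panc1 than in wild-type MiaPaCa2 1 to 2 (ITGA3 joined, without knockout replicate 2 of MiaPaCa2). The log2 ratio of ITGB3 to ITGAV in MiaPaCa2, knockout minus wild-type, was -0.42 and ran from -0.88 to 0.20 with a library left out, above 0 without knockout replicate 2. Values that changed sign were all uncalled. Centred on chromosomes, they were ITGAV (0.1084) and ITGB1 (0.0322) in Panc1, ITGA6 (0.0594) and ASAP2 (0.0869) in MiaPaCa2 and ITGA3 between the wild-type lines (0.0701). With median-ratio scaling they were ITGAV (0.1054) and ITGB1 (0.0202) in Panc1 and ITGA6 between the effects (0.087). With quantile normalization they were ITGAV in Panc1 (0.0708), ITGA6 between the effects (0.0262) and ITGB1 between the knockout lines (-0.17), and with the same sum ITGA3 between the wild-type lines (0.0077). With a library left out, ITGAV in Panc1 ran from -0.0814 to 0.0388, ITGA5 in MiaPaCa2 from -0.1171 to 0.0028, ITGA6 between the effects from -0.1228 to 0.0081 and ITGB1 between the knockout lines from -0.0777 to 0.1422. The cause of these shifts was not tested. The lower share of called genes in Panc1 was 65.6% as deposited, 50.6% with median-ratio scaling and 52% with quantile normalization, and its all-gene median was -0.10, -0.01 and -0.02. The replicate block cannot move a difference in this balanced design (ITGB4 stayed at 1.36 in Panc1), only its error. It changed no call of a chain in any comparison. Same-numbered deviations correlated at 0.017 to 0.078 in Panc1 and at -0.165 to -0.002 in MiaPaCa2. Depth is unknown, which limits what levels near 0 can show.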
